A study of Mus musculus with 6 samples.

Results

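A set of 10 genes that mark cortical interneurons were followed across the 3 groups of mice: Gad1, Gad2, Lhx6, Sst, Npy, Cort, Crh, Vip, Pvalb and Calb2. They were taken by symbol from the 54429 gene entries of the count files, in which each of the 10 had an entry. All 10 were among the 20409 genes that passed the filter on low counts. RNA came from bulk lysates of the prefrontal cortex (PFC) of mice aged 6 months, 2 mice in each group. WT mice, labelled C57BL/6 x C3H, received vehicle. P301S Tau mice, labelled PS19, carry a transgene for human tau with the P301S mutation and received either vehicle (Tau group) or UNC0642 (UNC0642 group), so both of the latter groups share the transgene and all mice share the mixed background. UNC0642 is an inhibitor of the histone methyltransferases EHMT1 and EHMT2, which write the repressive H3K9me2 mark, and was given by injection on consecutive days.

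Cortical interneurons are the neurons that release GABA within the cortex and restrain the excitatory pyramidal cells. GAD67 and GAD65, the products of Gad1 and Gad2, make GABA from glutamate in nearly all of them, whereas the other genes divide them into classes. Lhx6 is a transcription factor of the cells born in the medial ganglionic eminence, which later express either parvalbumin (Pvalb) or somatostatin (Sst), and many cells born in the caudal ganglionic eminence express Vip or calretinin (Calb2). Somatostatin, neuropeptide Y, cortistatin, corticotropin-releasing hormone and vasoactive intestinal peptide are neuropeptides that are released beside GABA. In bulk tissue, fewer cells of a type and less RNA per cell cannot be told apart.

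Sst and Npy are the members on which the results turn, so the 250 bases upstream of their RefSeq transcription start are given first. The sequences are those of RefSeq on GRCm38.p6, whose promoter entries matched 8 of the 10 members. Crh and Calb2 are named only. Each stretch is written 5′ to 3′ on the strand of its gene, and capitals mark the full cAMP response element, TGACGTCA. Sst lies on the minus strand of chromosome 16 and its stretch is chr16:23890845-23891094. Npy lies on the plus strand of chromosome 6 and its stretch is chr6:49822460-49822709.
Sst: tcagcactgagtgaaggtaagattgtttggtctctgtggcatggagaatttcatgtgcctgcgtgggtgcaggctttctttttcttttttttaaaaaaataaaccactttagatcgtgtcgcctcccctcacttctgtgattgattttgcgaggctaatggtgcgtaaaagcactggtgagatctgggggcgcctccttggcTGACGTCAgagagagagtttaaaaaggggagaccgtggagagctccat
Npy: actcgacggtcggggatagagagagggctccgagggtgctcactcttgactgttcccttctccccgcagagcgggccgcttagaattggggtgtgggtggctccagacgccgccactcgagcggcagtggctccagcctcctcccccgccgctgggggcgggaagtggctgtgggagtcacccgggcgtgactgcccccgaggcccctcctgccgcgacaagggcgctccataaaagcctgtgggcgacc

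The element in the Sst stretch runs from base -48 to base -41 relative to the RefSeq start site, at chr16:23890885-23890892. It is the only one in the windows of the 8 members. In GENCODE M21 the Sst gene starts at chr16:23890958, inside this stretch and upstream of the element, so these positions hold for the RefSeq start only. Over all 32851 RefSeq promoter windows of 300 bases, from 250 before to 50 after the start, 588 (1.79%) held these letters. They read the same on both strands. The shorter form TGACG, searched on both strands, stood in 20.8% of the windows. It was found in the windows of Gad2, Cort and Vip and, as part of the full element, of Sst. TATAAA, searched on both strands, stood in 13.6% of all windows and in those of Vip, Gad1 and Lhx6. A match is a description of letters, not of binding.

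Sst and Cort are related genes whose peptides bind the same somatostatin receptors, and both were called higher in Tau than in WT below. The bases that code for the end of each precursor, where the active peptide lies, are shown for comparison from the GENCODE M21 transcripts. Both stretches lie in coding sequence of exon 2 of 2, that of Sst at chr16:23889732-23889773 and that of Cort at chr4:149125267-149125311, each on the minus strand of GRCm38. Capitals mark 7 codons of the core that both peptides share. Some of the codons on either side also encode the same amino acid in both genes.
Sst: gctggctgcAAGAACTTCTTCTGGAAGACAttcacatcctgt
Cort: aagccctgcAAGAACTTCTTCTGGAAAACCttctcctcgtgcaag
In these 7 codons, 19 of 21 bases are identical between the genes.

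Total counts ranged from 17005664 to 28972176 per library, so that 3 counts corresponded to 0.104 to 0.176 CPM, the count of a gene scaled to the same total in every library. All levels below are CPM scaled to the library sizes of the TMM method. Several libraries stood apart. Xist was at 191 to 317 CPM in WT replicate 2 and both Tau libraries and at no more than 0.197 CPM in the other 3, and the Y-linked gene Ddx3y had the opposite pattern, so UNC0642 treatment and sex cannot be told apart in the comparison with Tau. In the library labelled WT replicate 1, Prnp, whose promoter drives the transgene in this line, was at 1652 CPM, within the 1470 to 1694 CPM of the 4 libraries labelled as transgenic and above the 873 CPM of WT replicate 2. The same library had 215 CPM over a list of 8 olfactory bulb neuron markers, against 30.8 to 37.5 CPM elsewhere. Tau replicate 2 had 369 CPM over 10 markers of striatal projection neurons, against 183 to 216 CPM elsewhere, and 5667 CPM over 8 oligodendrocyte markers, against 1489 to 3025 CPM. The library labelled WT replicate 1 is named by its label below, and all comparisons with WT depend on it. Markers of excitatory cortical neurons, 8 in number, summed to 1426 to 1656 CPM, those of astrocytes to 4715 to 5383 CPM, of microglia to 281 to 352 CPM, and of endothelial cells to 97.2 to 140.2 CPM, with 4 of 6 endothelial markers called lower in Tau than in WT. Markers of choroid plexus summed to at most 4.12 CPM and those of thalamus and hypothalamus to at most 20.03 CPM, and Ttr, Folr1, Kcne2, Avp, Oxt and Hcrt among them were at 0 in at least 1 library. Ehmt1 (43.6 to 49.0 CPM) and Ehmt2 (131 to 161 CPM) had overlapping ranges in the 3 groups.

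Relative to WT mice, P301S Tau mice given vehicle had changes in 4 members: Sst, Npy and Cort rose and Calb2 fell. A gene was called changed at an unadjusted p under 0.05 in edgeR's quasi-likelihood test and a fold change of at least 1.2, the threshold of the study, and 4 of the 10 members were called against 9.81% of all genes tested. Sst alone of the members also had a Benjamini-Hochberg adjusted p under 0.05, a level that 0.157% of all genes reached. The fall of Calb2 rested on the library labelled WT replicate 1, and without that library the called members were Sst and Npy. The median log2 fold change of the 10 members was 0.17, against 0.00 over all genes. The other 6 members were not called in this comparison.

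After UNC0642, 2 of the 10 members, Sst and Npy, were called lower than in vehicle-treated P301S Tau mice, against 3.95% of all genes. No member was called higher, against 3.73%, and 7.69% of all genes were called in either direction. No member had an adjusted p under 0.05 in this comparison, where 0.0196% of all genes did. Without a fold limit, 3 members passed an unadjusted p of 0.05, the additional one being Gad2, against 8.86% of all genes. The median log2 fold change of the members was -0.03, against 0.00 over all genes. Relative to WT mice, UNC0642-treated mice had a higher Vip and a lower Calb2, 2 members called against 9.47% of all genes, and no member reached an adjusted p under 0.05, against 0.216%. No member was called without the library labelled WT replicate 1.

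**Figure D1:**
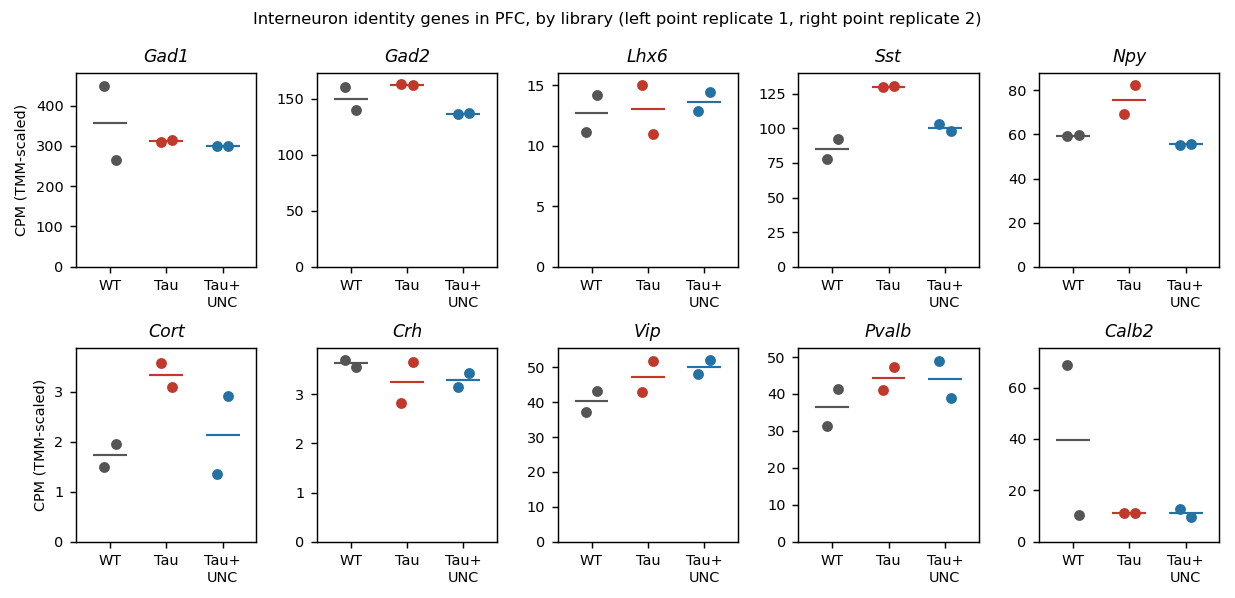
Level of each of the 10 genes in CPM (linear axis from 0) in WT, Tau and UNC0642 (Tau+UNC) libraries, with replicate 1 as the left point, replicate 2 as the right point and the group mean of 2 as a line. Both Tau points lie above the other 4 for Sst, Npy and Cort, and WT replicate 1 lies far above the rest for Calb2 at 68.8 CPM.

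**Figure D2:**
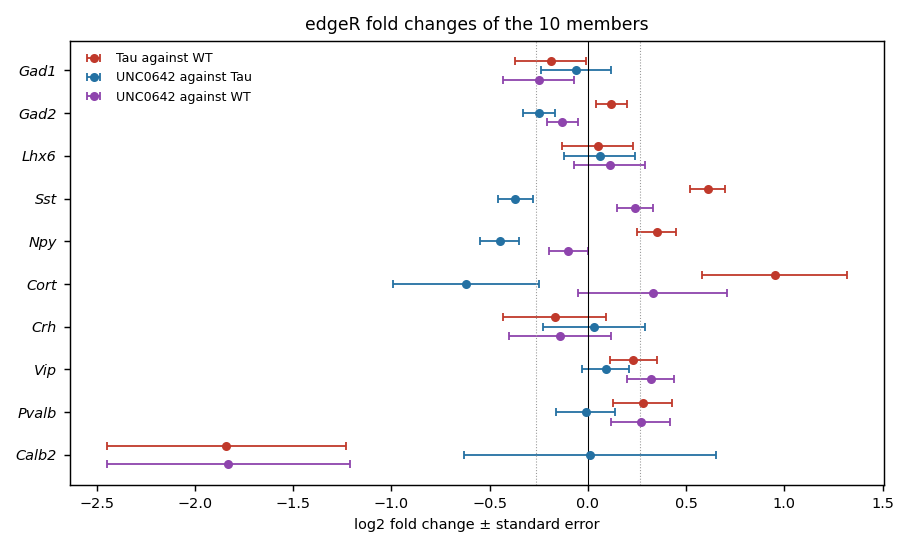
Log2 fold change with its standard error from edgeR for the 10 genes in the 3 comparisons, with dotted lines at a change of 1.2-fold. Sst, Npy and Cort lie to the right of 0 in Tau against WT and to the left of 0 in UNC0642 against Tau, and Calb2 has the widest error bars.

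Neither gene of GABA synthesis was called in any of the 3 comparisons. Gad1 (chr2:70553072-70602014, plus strand) was at 449 and 266 CPM in WT replicates 1 and 2, at 309 and 316 CPM in Tau and at 300.9 and 300.0 CPM in UNC0642. The WT pair lay on either side of the other 4 libraries, so WT and Tau overlapped, and the Tau and UNC0642 libraries lay close to each other. Its log2 fold change was -0.19 ± 0.18 (SE, adjusted p = 0.689) in Tau against WT and -0.06 (adjusted p = 0.957) in UNC0642 against Tau. The value in Tau against WT rested on the WT libraries, being 0.23 (adjusted p = 0.405) without the library labelled WT replicate 1 and -0.52 (adjusted p = 0.0163) without WT replicate 2. With the Xist term, which is estimated from the WT pair, Gad1 was -0.81 (adjusted p = 0.0379) in UNC0642 against Tau. The pseudogene Gad1-ps, which could share reads with Gad1, was also highest in WT replicate 1, at 10.01 CPM against 4.74 to 6.01 CPM.

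Gad2 (chr2:22622205-22693874, plus strand) was steadier, at 160.2 and 140.2 CPM in WT, 163 and 162 CPM in Tau, and 136 and 138 CPM in UNC0642. The UNC0642 libraries were the lowest pair and the Tau libraries the highest, with no overlap between any of the groups. Gad2 was 0.25 ± 0.08 lower on the log2 scale in UNC0642 than in Tau (adjusted p = 0.458), which is under the 1.2-fold limit. With the Xist term, which is estimated from the WT pair, the log2 fold change was -0.44 (adjusted p = 0.321) and Gad2 was called. The difference between Tau and WT was 0.12 ± 0.08 (adjusted p = 0.596). Slc32a1, the vesicular transporter that loads GABA into vesicles, had log2 fold changes of -0.07 and -0.18 in the same comparisons (adjusted p = 0.843 and 0.712).

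Lhx6 (chr2:36081953-36105408, minus strand) was at 11.1 and 14.2 CPM in WT, 15.02 and 10.99 CPM in Tau, and 12.8 and 14.4 CPM in UNC0642. The 3 groups overlapped. The log2 fold change was 0.05 ± 0.18 in Tau against WT (adjusted p = 0.942) and 0.06 in UNC0642 against Tau. Of the members, Lhx6 alone shared annotated exon bases with another gene, 104 bases with Gm27953, which had 0 counts in all libraries.

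Sst (chr16:23889573-23890958, minus strand), which encodes somatostatin, was at 77.8 and 92.5 CPM in WT, at 129.9 and 131 CPM in Tau, and at 103 and 97.8 CPM in UNC0642. Both Tau libraries were above all others, both WT libraries were below all others, and the UNC0642 libraries lay between them without overlap. Group means were 85.2 ± 10.4 CPM (SD, n = 2) in WT, 130.2 ± 0.523 in Tau and 101 ± 3.79 in UNC0642. Sst was 1.53-fold higher in Tau than in WT, a log2 fold change of 0.61 ± 0.09 (adjusted p = 0.0453), and its p ranked 26th of the 20409 genes. It was 1.3-fold lower in UNC0642 than in Tau, a log2 fold change of -0.37 ± 0.09 (adjusted p = 0.353).

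The rise of Sst in Tau was called in 16 of 16 alternative analyses, with log2 fold changes of 0.49 to 0.74 and adjusted p from 1.33e-07 to 0.195, under 0.05 in 7 of them. Without the library labelled WT replicate 1, Sst was 0.49 higher on the log2 scale (adjusted p = 0.146), and without Tau replicate 2, the library rich in striatal and oligodendrocyte markers, it was 0.61 higher (adjusted p = 0.195). The fall after UNC0642 was called in 15 of 16 analyses, and was -0.12 (adjusted p = 0.857) when a term for high or low Xist was added to the model. That term is estimated from the WT pair alone, because both Tau libraries are Xist-high and both UNC0642 libraries Xist-low. In Tau against WT it therefore compares Tau with WT replicate 2, as does leaving out WT replicate 1. Both are counted among the 16 analyses but are not separate checks. Other thresholds are not among the 16. The 10 markers of striatal projection neurons moved in the same directions as Sst: 8 were called higher in Tau than in WT, with a median log2 fold change of 0.87, and 9 were called lower in UNC0642 than in Tau, with a median of -0.75. Their sum was 216 CPM in Tau replicate 1, 369 CPM in Tau replicate 2 and 183 to 196 CPM in the other libraries, and their part in the Sst and Npy results was not tested. Between UNC0642 and WT, Sst differed by 0.24 on the log2 scale (adjusted p = 0.35) and was not called.

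Npy (chr6:49822710-49829507, plus strand), which encodes neuropeptide Y, was at 59.4 and 59.6 CPM in WT, at 69.4 and 82.3 CPM in Tau, and at 55.4 and 55.6 CPM in UNC0642. The Tau libraries were again the highest pair, and both UNC0642 libraries lay below both WT libraries by a small margin. Npy was 1.27-fold higher in Tau than in WT, a log2 fold change of 0.35 ± 0.10 (adjusted p = 0.254). It was 1.36-fold lower in UNC0642 than in Tau, at -0.45 ± 0.10 (adjusted p = 0.301). The rise was called in 15 of 16 alternatives and was 0.23 (adjusted p = 0.525) without Tau replicate 2, where it was not called. The fall was called in 16 of 16 and was -0.44 with the Xist term and -0.33 without Tau replicate 2. The 16 do not include other thresholds. At a fold change of at least 1.5, Npy was not called in Tau against WT, and no member was called in UNC0642 against Tau.

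Sst and Npy are frequently expressed by the same interneurons, and they were the members called higher in Tau against WT and lower in UNC0642 against Tau, the directions in which the striatal markers also moved. Of all genes tested, 175 (0.857%) had both calls. The Tau libraries enter both comparisons, so the calls are not independent of each other. Both genes also stand on the study's own list of genes that rose in Tau and reversed with UNC0642, which was chosen on these same libraries and is not independent evidence of their direction.

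Cort (chr4:149125034-149126763, minus strand), which encodes cortistatin, had few reads: 38 and 50 counts in WT, 100 and 54 in Tau, and 23 and 66 in UNC0642. This gave 1.498 and 1.95 CPM in WT, 3.58 and 3.09 CPM in Tau, and 1.36 and 2.91 CPM in UNC0642. Both Tau libraries were above the other 4, and the UNC0642 pair spanned the range of WT and beyond. Cort was 1.94-fold higher in Tau than in WT, a log2 fold change of 0.95 ± 0.37 (adjusted p = 0.359), called in 13 of 16 alternatives. The call was lost without the library labelled WT replicate 1 (0.77) and without Tau replicate 1 (0.84). It was also lost with the Xist term (0.78), which in Tau against WT repeats the comparison without WT replicate 1. After UNC0642 its log2 fold change was -0.62 ± 0.37 (adjusted p = 0.658), not called. It was -0.20 without UNC0642 replicate 1 and -1.29 (adjusted p = 0.767), called, without UNC0642 replicate 2.

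Crh (chr3:19693401-19695396, minus strand), which encodes corticotropin-releasing hormone, was at 3.71 and 3.55 CPM in WT, 2.82 and 3.66 CPM in Tau, and 3.14 and 3.44 CPM in UNC0642. Tau overlapped both other groups. The log2 fold change was -0.17 ± 0.26 in Tau against WT (adjusted p = 0.816) and 0.03 in UNC0642 against Tau. With errors of this size, a change as large as that of Npy was not detectable for Crh at this depth.

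Vip (chr10:5639218-5647617, plus strand), which encodes vasoactive intestinal peptide, was at 37.2 and 43.4 CPM in WT, 42.8 and 51.9 CPM in Tau, and 48.1 and 52.1 CPM in UNC0642. The UNC0642 pair was above the WT pair, and Tau overlapped both. Vip was 0.32 ± 0.12 higher on the log2 scale in UNC0642 than in WT (adjusted p = 0.337), called in 14 of 16 alternatives. The call was lost without the library labelled WT replicate 1 (0.21) and without UNC0642 replicate 2. The difference was 0.23 in Tau against WT (adjusted p = 0.462) and 0.09 in UNC0642 against Tau, neither called. The former was called without WT replicate 2 (0.34) and without Tau replicate 1 (0.36).

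Pvalb (chr15:78191114-78206400, minus strand), which encodes the calcium buffer of fast-spiking basket and chandelier cells, was at 31.5 and 41.4 CPM in WT, 41.2 and 47.3 CPM in Tau, and 49.0 and 39.0 CPM in UNC0642. The groups overlapped, with WT replicate 1 the lowest library. The log2 fold change was 0.28 ± 0.15 in Tau against WT (adjusted p = 0.485) and was not called. It was 0.09 without the library labelled WT replicate 1 and 0.49 (adjusted p = 0.248), called, without WT replicate 2. It was -0.01 in UNC0642 against Tau. In UNC0642 against WT it was 0.27, not called, and was called without WT replicate 2 (0.48) and without UNC0642 replicate 2 (0.43).

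Calb2 (chr8:110137502-110168210, minus strand), which encodes calretinin, was at 68.8 CPM in WT replicate 1 and at 10.4 CPM in WT replicate 2. It was at 11.1 and 10.99 CPM in Tau and at 12.8 and 9.62 CPM in UNC0642. WT replicate 1 thus stood alone, and the other 5 libraries overlapped. The log2 fold change was -1.84 ± 0.61 in Tau against WT (adjusted p = 0.307) and -1.83 ± 0.62 in UNC0642 against WT (adjusted p = 0.288). Without the library labelled WT replicate 1 it was 0.08 and 0.10, and without WT replicate 2 it was -2.64 (adjusted p = 2.94e-05) and -2.63. In UNC0642 against Tau it was 0.01 (adjusted p = 0.996), but -2.72 (adjusted p = 0.0069) with the Xist term, which rests on the WT pair. Calretinin is also abundant in olfactory bulb granule and periglomerular cells, and all 8 olfactory bulb markers were called lower in Tau than in WT, with a median log2 fold change of -2.86. Their part in the Calb2 result was not tested.

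**Figure D3:**
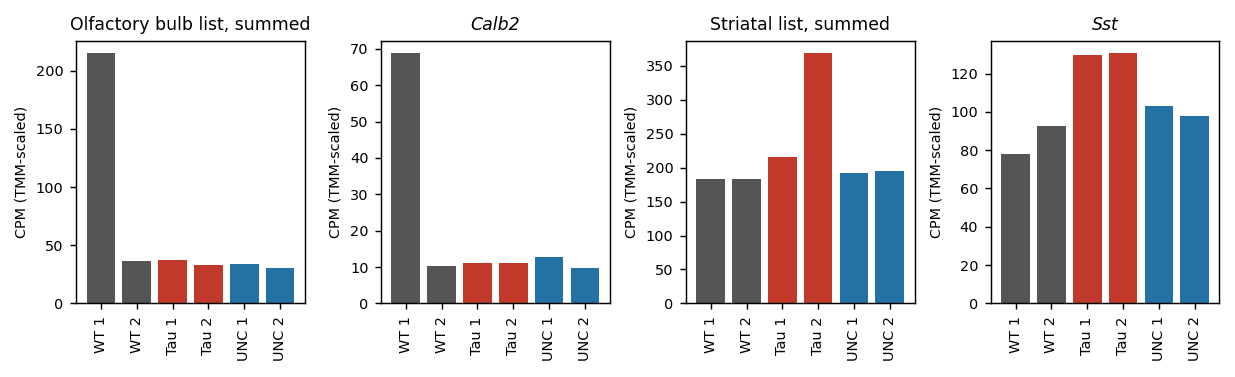
Bars from 0 show the summed CPM of 8 olfactory bulb markers, the CPM of Calb2, the summed CPM of 10 striatal projection neuron markers and the CPM of Sst in each of the 6 libraries, 1 bar per library. WT replicate 1 is high for both the olfactory bulb list (215 CPM) and Calb2 (68.8 CPM), whereas the striatal list is highest in Tau replicate 2 (369 CPM), then in Tau replicate 1 (216 CPM), and Sst is highest in both Tau libraries.

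**Figure D4:**
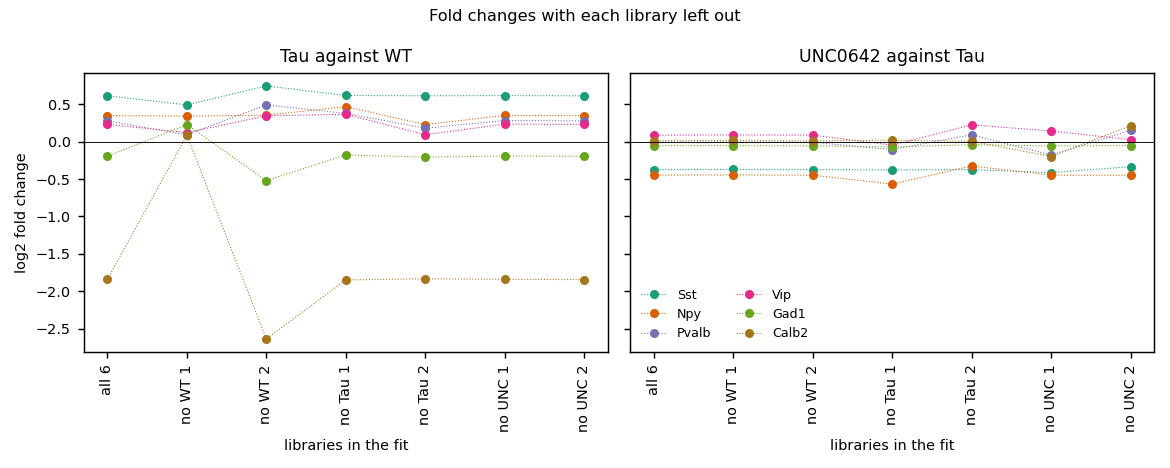
Log2 fold change of 6 members with all 6 libraries and with each library left out in turn, for Tau against WT on the left and UNC0642 against Tau on the right. Sst stays between 0.49 and 0.74 and between -0.41 and -0.34, while Calb2 moves from -1.84 to 0.08 without the library labelled WT replicate 1.

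Groups that did not overlap were frequent among all genes. In Tau against WT, Gad2, Sst, Npy and Cort had both Tau libraries above both WT libraries, 4 of 10 members against 21.9% of all genes. In UNC0642 against Tau, Gad1, Gad2, Sst, Npy and Cort had both UNC0642 libraries below both Tau libraries, 5 of 10 members against 20.9% of all genes, and no member had them above, against 20.4%. In UNC0642 against WT, Sst and Vip were higher without overlap, against 22.1% of all genes, and Gad2, Npy and Crh were lower, against 22.3%.

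Levels of different genes were compared as CPM per kilobase of annotated exon, merged over all transcripts of a gene. These lengths were 721 bases for Sst and 566 for Npy, against 7639 for Gad1 and 3402 for Vip. The order between genes holds for these lengths only. The order at the top was the same in each group: Sst was first and Npy second. In WT these levels were 118 ± 14.4 CPM per kilobase (SD, n = 2) for Sst and 105 ± 0.289 for Npy, in Tau 181 ± 0.725 and 134 ± 16.1, and in UNC0642 139 ± 5.26 and 98.1 ± 0.203. The libraries of the 2 genes did not overlap within any group. Gad1 and Pvalb came next with overlapping ranges, at means of 35.0 to 46.8 CPM per kilobase, followed by Gad2 at 23.3 to 27.7. Vip was at 11.8 to 14.7 CPM per kilobase, and Calb2 at 22.7 ± 23.7 in WT, 6.33 in Tau and 6.43 in UNC0642. Cort, Lhx6 and Crh were the lowest in every group, at 2.46 to 4.92 CPM per kilobase, and Cort ranked above the other two in Tau without overlap but not in WT.

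Expressed as a share of the Gad2 level in the same library, Sst was at 48.6% and 66.01% in WT, 79.5% and 80.5% in Tau, and 75.8% and 71.1% in UNC0642. Relative to Gad2, both Tau libraries were above all WT and UNC0642 libraries, and the gap between Tau and UNC0642 was smaller than in CPM because Gad2 was lower in UNC0642 too. Npy was at 37.1% and 42.5% of Gad2 in WT, 42.5% and 50.7% in Tau, and 40.7% and 40.4% in UNC0642, so that Tau replicate 1 was level with WT replicate 2. Vip was at 23.2% and 30.9% of Gad2 in WT and at 35.4% and 37.9% in UNC0642. Relative to Slc32a1, Sst was at 259% and 318% in WT, 418% and 522% in Tau, and 422% and 388% in UNC0642, so that Tau overlapped UNC0642. Npy relative to Slc32a1 overlapped likewise, at 224% and 329% in Tau and 227% and 221% in UNC0642. Gad2 alone was not the planned reference, which was the sum of Gad1 and Gad2. Relative to that sum, Sst was at 12.8% and 22.8% in WT, 27.5% and 27.3% in Tau, and 23.6% and 22.4% in UNC0642. The Tau libraries were again the highest pair, and WT overlapped UNC0642. No test was made of these ratios.

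**Figure D5:**
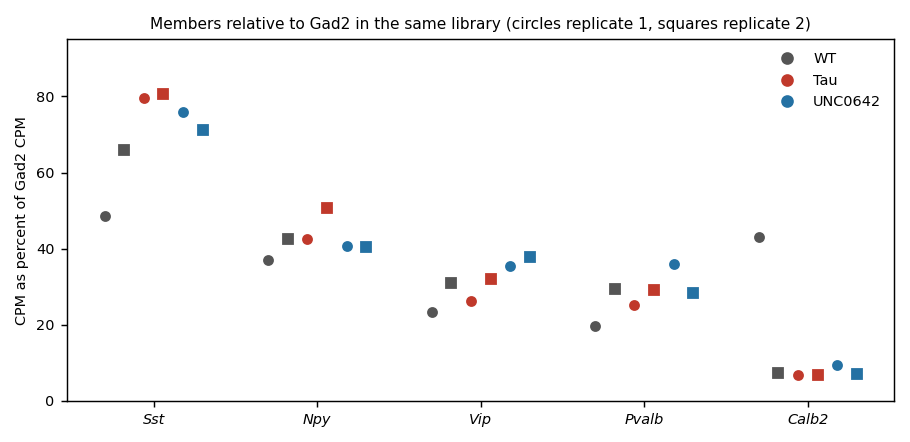
CPM of 5 members as percent of the Gad2 CPM in the same library (linear axis from 0), with circles for replicate 1 and squares for replicate 2 of WT, Tau and UNC0642. For Sst both Tau points (79.5% and 80.5%) are the highest, and for Calb2 WT replicate 1 stands apart at 42.9%.

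Sst was also compared with the markers of the other main classes within each library. Sst was 2.47 and 2.24 times Pvalb in WT, 3.16 and 2.76 times in Tau and 2.11 and 2.51 times in UNC0642. It was 2.09 and 2.13 times Vip in WT, 3.03 and 2.52 times in Tau, and 2.14 and 1.88 times in UNC0642. In both ratios the Tau libraries were the highest pair. These ratios of CPM are not per length and serve only to compare libraries.

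Another 60 genes of the same biology were listed beside the members: shared GABA neuron genes, genes of the medial and caudal ganglionic eminence lineages, genes of the Sst and Pvalb classes, and peptide receptors. Of these, 59 were tested, and Nkx2-1 was at 0 in all libraries. In Tau against WT, 6 were called higher, against 3.72% of all genes, and 5 lower, against 6.1%, with a median log2 fold change of 0.01. After UNC0642, none was called higher than in Tau and 6 were called lower, against 3.95% of all genes, with a median of -0.10. Of these 6, Penk and Vipr1 were called with each library left out in turn. With the Xist term, Penk was called and Vipr1 was not. In UNC0642 against WT, 3 were higher, against 3.77%, and 12 lower, against 5.69%. No companion gene had an adjusted p under 0.05 in any of the comparisons.

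Among the receptors for the members' peptides, Vipr1, a receptor for Vip, was at 33.8 and 36.5 CPM in WT, 46.4 and 45.9 CPM in Tau, and 37.1 and 36.3 CPM in UNC0642. It was called in both directions, with a log2 fold change of 0.39 ± 0.09 in Tau against WT (adjusted p = 0.201) and -0.33 ± 0.10 in UNC0642 against Tau (adjusted p = 0.415). The fall of Vipr1 was not called with the Xist term. The somatostatin receptor gene Sstr2 was at 26.1 and 26.3 CPM in WT, 31.6 and 35.4 CPM in Tau, and 32.1 and 31.4 CPM in UNC0642. It was called higher than WT in both (0.35 and 0.28, adjusted p = 0.271 and 0.336), and was not called in UNC0642 against Tau (-0.08). Sstr4 was called in UNC0642 against WT (0.29). Vipr2 was called lower than WT in both, and its level was 6.54 CPM in WT replicate 1 against 0.296 to 0.715 CPM elsewhere. Adcyap1r1, the most abundant of these receptors, was at 140.1 to 173 CPM and was not called.

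Of the 6 genes of the Sst class, Crhbp, which binds corticotropin-releasing hormone, was called higher in Tau than in WT (0.33 ± 0.11, adjusted p = 0.316), at 27.0 and 30.9 CPM in WT and 35.2 and 37.5 CPM in Tau. The Crhbp call was lost without the library labelled WT replicate 1 and with the Xist term, which repeats that comparison. It was also lost without Tau replicate 2 and with library size alone. Nos1, the neuronal nitric oxide synthase of a small Sst and Npy class, was called lower after UNC0642 than in Tau (-0.37, adjusted p = 0.563) and than in WT (-0.47, adjusted p = 0.292). Its Tau libraries differed, at 49.8 and 33.2 CPM, and the UNC0642 libraries were at 33.6 and 31.1 CPM. The call against Tau was near the limit, at an unadjusted p of 0.0498 in edgeR's quasi-likelihood test. It was lost without Tau replicate 1 and without either UNC0642 library. DESeq2 size factors, library size alone, at least 10 counts in every library, limma-voom, the likelihood ratio test and the 2 compared groups alone also lost it. Calb1, the most abundant of this list, was at 92.8 to 178 CPM and was not called. In the Pvalb class, the potassium channel gene Kcnc1 was called lower in UNC0642 than in WT (-0.47 ± 0.10, adjusted p = 0.105), while Kcnc2, the most abundant, was not called. None of the 5 tested genes of the medial lineage was called, and Satb1, the most abundant, was at 132 to 143 CPM.

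Of the 19 genes of the caudal lineage, Lamp5, Penk and Pnoc were called higher and Adarb2 and Sp8 lower in Tau than in WT. Lamp5 was lowest in WT replicate 1 at 93.2 CPM and at 129 to 142 CPM elsewhere, and Sp8 was at 15.7 CPM in WT replicate 1 against 1.54 to 2.503 CPM elsewhere. Sp8 also belongs to the olfactory bulb list. Penk, which the striatum expresses strongly, was at 60.1 CPM in Tau replicate 2 against 16.3 to 28.9 CPM elsewhere. The part of the striatal and olfactory bulb signal in these calls was not tested. After UNC0642, Ndnf (-0.69), Nr2f2 (-0.47), Penk (-1.25) and Prox1 (-0.61) were called lower than in Tau. Ndnf was at 43.8 and 18.7 CPM in Tau and at 18.7 and 20.3 CPM in UNC0642. Neither Ndnf nor Nr2f2 was called without Tau replicate 1 or without either UNC0642 library. Both were also lost with the DESeq2 Wald test, a replicate block and the Xist term. Ndnf was lost with limma-voom and the 2 compared groups alone, and Nr2f2 with other filters, library size alone and the likelihood ratio test. Nr2f2 and Prox1 were not called without Tau replicate 2, nor Prox1 with the Xist term. Relative to WT, Lamp5 was called higher in UNC0642 and Adarb2, Ndnf, Reln and Sp8 lower. Cnr1, the most abundant of this list, was at 320 to 409 CPM and was not called.

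Among the shared GABA neuron genes, the transcription factor gene Dlx5 was called lower in Tau than in WT, and Dlx1, Dlx2, Dlx5 and Dlx6 lower in UNC0642 than in WT. Dlx1 was at 41.2 CPM in WT replicate 1 and at 20.9 to 23.7 CPM in the other libraries, and Dlx2 at 3.71 against 0.947 to 1.95 CPM. No gene of this list was called in UNC0642 against Tau.

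The genes whose log2 CPM followed Sst most closely over the 6 libraries, out of 20408 others, were Syt11 (Pearson r = 0.989), Tppp (0.988) and Lingo3 (0.987). For the other members the closest genes were Abca1 for Gad1 (0.995), Snx22 for Gad2 (0.991), Slc22a4 for Lhx6 (0.994), Agpat4 for Npy (0.989), Dlk1 for Cort (0.999), Nat8f4 for Crh (0.998), Spcs1 for Vip (0.991), Tmem206 for Pvalb (0.987) and Pax6 for Calb2 (0.996). Dlk1 had few reads, from 2 counts in UNC0642 replicate 1 to 36 in Tau replicate 1. The correlations are a description with no test, over libraries that share the differences named above.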

How the data were processed

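The authors extracted total RNA from PFC with a DNase step, depleted ribosomal RNA and prepared stranded libraries. After trimming with Cutadapt, reads were aligned with TopHat2, by their account to RefSeq mRNAs. The submitters' processing notes list mm10, SAMtools and featureCounts. Versions and the strand setting of the counting were not given in the sources used here. The authors deposited raw counts per gene without normalization, with totals of 17005664 to 28972176 per library, and the less deep libraries limit precision for genes with few counts. For 26 genes of WT replicate 2 and Tau replicate 2, a spreadsheet date stood in place of the name, and these were joined by position.

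Counts were fitted with edgeR 4.0.16 under R 4.3.3, with limma 3.58.1 for an alternative. The filterByExpr filter (minimum count 10, minimum total 15) left 20409 genes, whose library sizes were TMM-scaled. The quasi-likelihood fit used all 6 libraries, with 1 mean for each group, and left 3 residual degrees of freedom, with a biological coefficient of variation of 12.3%. The call was that of the study, an unadjusted p under 0.05 with at least a 1.2-fold change. Adjusted p-values are Benjamini-Hochberg values over the 20409 genes. SEs come from the model and SDs from 2 libraries. The labels state biological duplicates. The p-values rest on the spread within groups, pooled over the 3 groups of 2 mice and moderated with that of other genes. This pool includes the WT pair, which differs in Xist and in olfactory bulb markers. With only the 2 compared groups in edgeR's quasi-likelihood test, the adjusted p of Sst in Tau against WT was 0.13. Same-numbered libraries are different mice and were not paired. Correlations used log2 CPM with a prior count of 2. Exon lengths and gene coordinates came from GENCODE M21 (GRCm38), which is not the annotation used for counting, and promoters from RefSeq GRCm38.p6. Tables and figures used Python 3.11.15, numpy 2.4.6, pandas 2.3.3 and matplotlib 3.10.9.

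The members and gene lists were chosen with earlier results of these data known. Named genes are the 10 members, the closest gene to each (3 for Sst), the called and the most abundant gene of each companion list, and Xist, Ddx3y, Mapt, Prnp, Ehmt1 and Ehmt2 as checks. Some genes that this rule names are not reported here. Marker lists of other cell types were summed. Mapt, the mouse tau gene, had 576 CPM in WT replicate 1, 449 in WT replicate 2 and 571 to 614 in the others. Alternatives were DESeq2 size factors and Wald test (DESeq2 1.42.0), library size alone, the filter left out or set to 10 counts in each library, limma-voom, edgeR's likelihood ratio test, the 2 compared groups alone, a replicate block, an Xist term, other thresholds, and each library left out.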

Additional observations from a re-analysis of the deposited data

How the results depend on the processing

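Of 480 alternative values of the members' fold changes, 425 kept their direction and side of the call, 16 gained the call, 12 lost it and 27 changed sign. Among called values, only those of Calb2 against WT changed sign, and Sst, Npy and Gad2 changed sign in none of the alternatives. With the Xist term, log2 fold changes in Tau against WT were 0.23 for Gad1, -0.12 for Lhx6 and 0.088 for Calb2, and in UNC0642 against Tau -0.025 for Crh, 0.39 for Pvalb and -2.72 for Calb2. With library size alone, Lhx6 was -0.023 in Tau against WT and Pvalb 0.022 in UNC0642 against Tau. Pvalb was 0.001 there with at least 10 counts in every library, and Calb2 -0.021 with limma-voom. With each library left out, values that crossed 0 in Tau against WT ranged from -0.52 to 0.23 for Gad1, -0.205 to 0.25 for Lhx6, -0.36 to 0.013 for Crh and -2.64 (without WT replicate 2) to 0.084 (without WT replicate 1) for Calb2. In UNC0642 against Tau they ranged from -0.14 to 0.31 for Lhx6, -0.15 to 0.22 for Crh, -0.048 to 0.22 for Vip, -0.18 to 0.15 for Pvalb and -0.20 to 0.21 for Calb2. In UNC0642 against WT they ranged from -0.58 to 0.17 for Gad1, -0.059 to 0.30 for Lhx6, -0.34 to 0.75 for Cort and -2.63 to 0.099 for Calb2. The number of members called was 4 in Tau against WT, 2 in UNC0642 against Tau and 2 in UNC0642 against WT, and that of the companion genes 11, 6 and 15. With an Xist term the members called were 2, 4 and 5, and the companion genes 6 and 14 in the first 2 comparisons. Of all genes, 9.21% and 8.05% were called in these 2. In Tau against WT the Xist term compares Tau with WT replicate 2, as does leaving out WT replicate 1, so these are not separate checks. With a fold change of at least 1.5, members called were 0 in UNC0642 against Tau and 1 in UNC0642 against WT, and companion genes 5, 3 and 8. At this limit 5.54% of all genes were called in Tau against WT and 4.19% in UNC0642 against Tau. By adjusted p under 0.05, edgeR's quasi-likelihood test called 1, 0 and 0 members and 0 companion genes in each comparison, against 4, 3 and 3 members and 12, 6 and 15 companion genes at an unadjusted p under 0.05. At that unadjusted p, 12.4% of all genes were called in Tau against WT and 8.86% in UNC0642 against Tau. Without a filter, 18 companion genes were called in Tau against WT, against 8.07% of all genes. In UNC0642 against WT, the DESeq2 Wald test called 1 member, and limma-voom called 1 member and 9 companion genes. The causes were not tested. With each library left out, members called ranged from 2 to 7 in Tau against WT, from 2 to 3 in UNC0642 against Tau and from 0 to 5 in UNC0642 against WT, and companion genes from 6 to 23, 4 to 6 and 6 to 19. The lowest value in Tau against WT, 2 members and 6 companion genes, came without WT replicate 1, the highest without WT replicate 2, and 6 companion genes were also called without Tau replicate 2. In UNC0642 against WT, leaving out UNC0642 replicate 2 left 1 member and 6 companion genes. Scaling by library size alone gave 4 companion genes higher and 9 lower in Tau against WT, in place of 6 and 5.

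Replicate numbers were not treated as pairs. Deviations of same-numbered libraries from their group means correlated at -0.0344, -0.0212 and -0.00335 over genes. With 2 libraries in each group these deviations hold a single difference per group, so they cannot settle whether same-numbered libraries shared a batch. With a replicate block, 4, 2 and 2 members and 10, 4 and 15 companion genes were called. Of all genes, 8.78% were called with this block in Tau against WT and 6.88% in UNC0642 against Tau.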
